A study of Mus musculus with 8 samples.

Results

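The comparison described here sets resting mouse embryonic fibroblasts that lack both Stat5a and Stat5b against control fibroblasts, neither having received growth hormone (GH). Its members are the 4 arrays, of 8 in the series, whose titles mark them as knockout or wild type without GH, with 2 arrays per genotype. Fibroblasts grown out of mouse embryos are a common primary culture of connective tissue cells. The labels give the strain of all arrays as C57BL/6 and the cells as passage 13, starved for 5 hours and then kept for another 2 hours without hormone. The other 4 arrays hold the same genotypes after 2 hours with GH at 1 ug/ml, and they enter here through the shared estimate of the spread and where the difference at rest is set against that under GH. The series title names proliferation and the inhibitors of the cell cycle encoded by Cdkn2b and Cdkn1a as its subject. The labels call the arrays of a group biological replications and number them 2 and 3. Whether separate embryos or cultures lie behind the numbers is not stated, and the p-values therefore reflect only how far these arrays spread, which may be technical. For 1 null array the source label carries the number 3 and the title 2, and the title was used.

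STAT5A and STAT5B are closely related transcription factors that are activated by JAK kinases at cytokine and growth hormone receptors. Once phosphorylated they pair, enter the nucleus and bind a short palindrome in the DNA near genes such as Cish and Socs2, whose products then damp the same receptors. In mesenchymal tissue they are best known for carrying the growth hormone signal, and cells kept without hormone are usually taken as the state in which they are least active.

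The labelled cell type was checked against its markers first. Of 12 fibroblast markers, 4 were higher and 2 lower in null cells and none was dim. At least 2-fold differences were found for 3 of them upward and none downward. The mean level of the list was 12.61 and 12.6 on the control arrays and 13.39 and 13.5 on the null arrays. The markers were thus present in both genotypes but not at equal levels. The type I collagen gene Col1a1, the surface antigen gene Thy1 and the filament gene Vim lay among the brightest genes on all arrays. Col1a1 read 14.41 and 14.30 on the control arrays and 14.19 and 14.35 on the null arrays, and Vim read 14.80 and 14.84 against 14.73 and 14.76, all on the log2 scale. Neither of these genes passed the test, but with the mean of its probe sets Col1a1 was called lower (-0.24 on the log2 scale). The long RNA Xist, which marks an inactive X chromosome, was called lower in null cells (-0.48 on the log2 scale). It read 12.94 and 13.06 on the control and 12.64 and 12.40 on the null arrays. The Y-linked genes Kdm5d, Eif2s3y, Uty and Usp9y were dim in both genotypes.

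The genes of STAT5 itself came out lower in the cells labelled null. The Stat5a probe set used for the gene read 7.83 and 7.15 on the control arrays and 5.73 and 5.59 on the null arrays, and its other probe set read 7.15 and 7.13 against 4.64 and 4.32. For Stat5b the probe set used read 7.97 and 8.06 against 7.31 and 7.33, and the other read 8.48 and 8.45 against 5.35 and 5.28. The genotypes did not overlap on any of these probe sets, and 68.8% of all genes did not overlap either. The sources used here do not say which part of either gene was removed. The genes are near-identical in places, so a probe set of either may read the other. Of the other family members measured, Stat3, the factor of interleukin 6 signalling, was lower (12.08 and 11.96 against 11.38 and 11.48), Stat6, the factor of interleukin 4, was lower by 0.41 on the log2 scale, and Stat2 and Stat4 did not pass.

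The resting difference reached across the whole transcriptome. Of 18193 genes tested, each represented by its brightest probe set, 47.5% passed limma's test at an adjusted p below 0.05, with 24.8% higher and 22.7% lower in null cells. These shares are the background against which every gene group below is read. At least 2-fold differences were found for 5.56% of genes upward and 6.13% downward. On 12518 genes, or 68.8%, both null arrays lay on the same side of both control arrays. The log2 differences had a median of 0.03, an SD of 0.75 and quartiles at -0.22 and 0.26. Between the replicates of a genotype the SD of the difference was 0.19 in control and 0.17 in null cells. The share of genes called depended on brightness. It was 12.9% among 4073 genes that were dim in both genotypes, meaning a mean below 6.1 on the log2 scale (the first quartile of all gene values), against 56.6% among 13300 genes bright in both. A further 820 genes were dim in 1 genotype and bright in the other. For these the levels are given without a fold, because the array does not set a dim value apart from background.

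**Figure D1:**
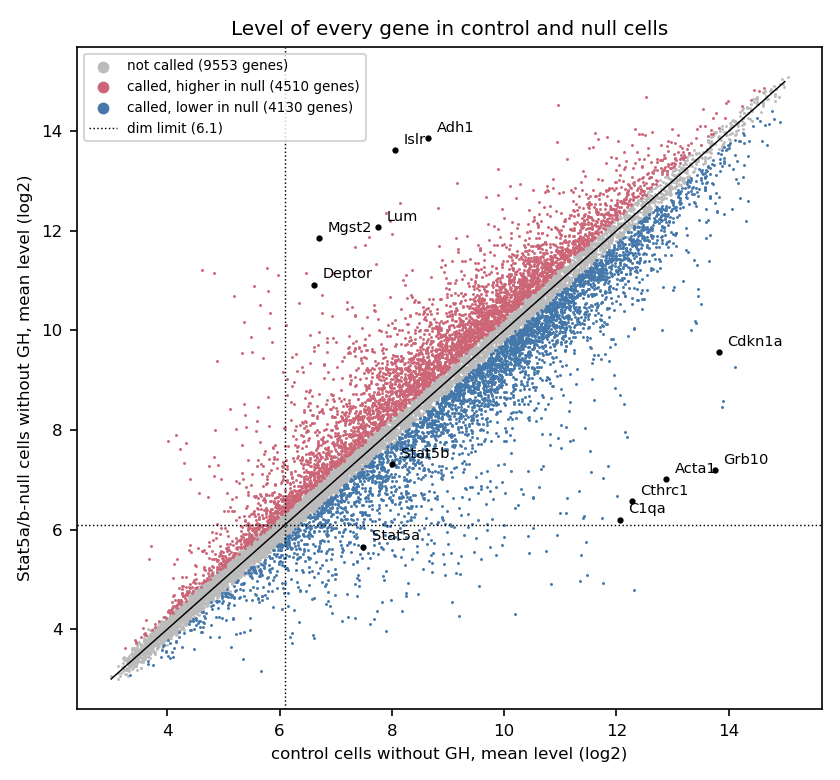
Mean level of each of 18193 genes on the 2 control arrays (horizontal axis, log2) and the 2 null arrays (vertical axis, log2), with genes called higher in null cells in red, called lower in blue and not called in grey, and the dim limit of 6.1 as dotted lines. Large differences lie on both sides of the diagonal, from Islr and Adh1 above it to Grb10 and Acta1 below it.

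Among genes bright in both genotypes, 35 were at least 8-fold higher and 55 at least 8-fold lower in null cells, and 3 and 10 passed 32-fold. The largest increase belonged to Islr, a secreted leucine-rich protein of mesenchymal stromal cells. It read 8.03 and 8.08 on the control arrays and 13.58 and 13.66 on the null arrays, a 47.3-fold difference (5.56 ± 0.09 on the log2 scale, limma adjusted p = 1.65e-12). Adh1, an alcohol dehydrogenase that also oxidises retinol, followed with 8.62 and 8.67 against 13.81 and 13.91. Mgst2, a microsomal glutathione transferase, moved from 6.78 and 6.65 to 11.91 and 11.80. In each of these genes both null arrays lay far above both control arrays, as follows from choosing the largest differences.

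Several of the next genes encode secreted or matrix proteins. Lum, the collagen-binding proteoglycan lumican, read 7.80 and 7.72 on the control and 12.00 and 12.16 on the null arrays. Matn2, a matrix adaptor protein, read 7.50 and 7.67 against 11.80 and 11.93, and Fbln7, a fibulin, read 6.36 and 6.34 against 10.62 and 10.50. C1s1, a protease of the first complement component, stood at 8.13 and 8.18 in control cells and at 12.48 and 12.66 in null cells. Abi3bp, a matrix protein that binds collagen, read 6.06 and 6.19 against 10.03 and 10.18, and since 1 control array lay below the dim limit no fold is given. Enpp3, an ectoenzyme that splits nucleotides, was 25.8-fold higher. All these genes were separated between the genotypes without overlap, which their choice by size made nearly certain.

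The other large increases were in genes of signalling and metabolism. Deptor, an inhibitor of the growth kinase mTOR, read 6.80 and 6.45 against 10.92 on both null arrays, a 19.7-fold difference. Ndrg2, a differentiation-associated gene, read 7.02 and 6.9 against 11.17 and 11.15. Gap43, best known as a growth cone protein of neurons, read 7.37 and 7.67 against 11.77 and 11.66. Qpct, which forms pyroglutamate at the ends of peptides, the interferon-inducible gene Ifi27l2a and the calmodulin-like gene Calml4 were 20.3-fold, 22.3-fold and 18.9-fold higher. The probe set chosen set the size for some genes: with the mean of a gene's probe sets the log2 difference was 2.63 in place of 4.30 for Deptor and 3.26 in place of 4.69 for Enpp3.

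The decreases went further. Grb10, an imprinted brake on signalling from the insulin and IGF receptors, read 13.83 and 13.68 on the control arrays and 7.23 and 7.15 on the null arrays, a 94.3-fold difference (-6.56 on the log2 scale, limma adjusted p = 9.66e-13). Its other 2 probe sets were lower as well, by less, with 9.89 and 9.76 against 6.15 and 6.70 on the brighter of them. Acta1, the actin of skeletal muscle, read 12.96 and 12.82 against 7.05 and 6.99. Cthrc1, a secreted protein of collagen-forming cells, read 12.17 and 12.40 against 6.56 and 6.60. Each of these genes was among the brightest in control cells and close to the dim limit in null cells.

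A group of the steepest decreases encodes proteins of phagocytes. C1qa, a subunit of the complement trigger C1q, read 11.97 and 12.16 against 6.1 and 6.30. Tyrobp, an adaptor for immune receptors, read 11.36 and 11.47 against 6.31 and 6.18, and Mpeg1, a pore protein of macrophages, read 11.05 and 10.94 against 6.34 and 6.33. The lysozyme genes Lyz1 and Lyz2 were 43.2-fold and 40.1-fold lower, and since the pair is near-identical the probe sets of each may read both. Ctsc, a protease that activates granule enzymes, read 11.61 and 11.87 against 6.53 and 5.93. The null arrays of this gene lay on both sides of the dim limit.

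The remaining genes in this direction serve other functions. Hspb1, a small heat shock protein of the actin skeleton, read 14.17 and 14.06 against 9.39 and 9.16. Pappa, the protease that frees IGF from its binding proteins, read 11.49 and 11.35 against 6.29 and 6.25. Thbd, the thrombin receptor thrombomodulin, read 11.84 and 11.87 against 7.28 and 7.27. The ubiquitin ligase gene Rnf128, the mucin-like gene Parm1 and the protocadherin gene Pcdh19 were 40.8-fold, 26.5-fold and 23.4-fold lower. Control and null arrays stayed apart in all 15 genes, which their choice by size made nearly certain. With the mean of a gene's probe sets the log2 difference was -4.37 for Grb10, -2.83 for Ctsc, -3.70 for Lyz1 and -4.17 for Pappa, each smaller than with the brightest probe set by over 1.5-fold.

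**Figure D2:**
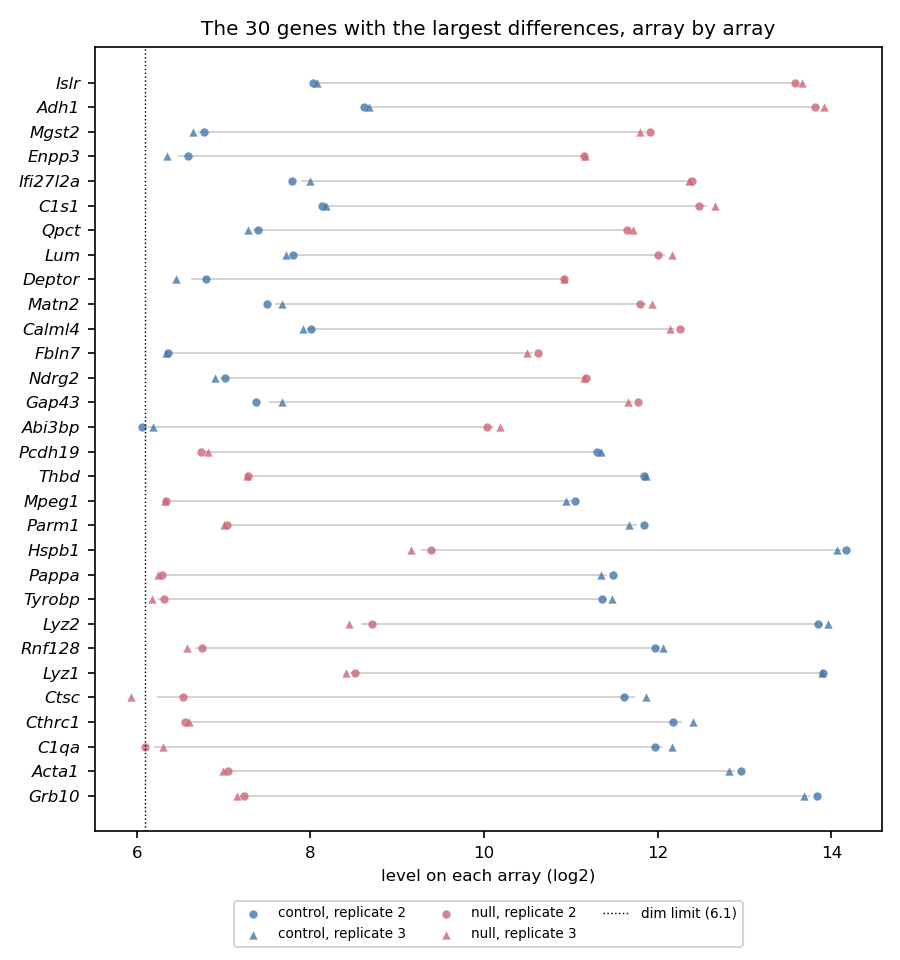
Level on each array (horizontal axis, log2) of the 30 genes with the largest called differences among genes bright in both genotypes, 15 in each direction, with control arrays in blue, null arrays in red and symbols for the replicate number. The replicates of a genotype lie close together and the genotypes far apart, with Islr at the top and Grb10 at the bottom. The genes were chosen for the size of this difference.

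The size of these differences was next compared with the same genotypes under GH, which are separate arrays. All 30 genes differed in the same direction there. The difference between the GH states passed the test in 5.16% of all genes and in 3 of the 30. That count over all genes was 938 and fell to 585 without null replicate 2. For Ndrg2 the increase was 4.20 at rest and 3.23 under GH. For Grb10 the decrease was -6.56 at rest and -7.11 under GH, and for Cthrc1 it was -5.70 and -6.48. In the other 27 the change between the states lay between -0.17 and 0.61 on the log2 scale and did not pass, which does not show that it was absent.

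Cell cycle genes formed the first gene group. The protein p53 switches on genes of growth arrest, repair and cell death, and 36 of its target genes were measured. Of these 27 were lower and 4 higher in null cells, against 22.7% and 24.8% of all genes, and 25 were at least 2-fold lower. Their median log2 difference was -1.62, against 0.03 for all genes, and 33 of the 36 did not overlap between the genotypes, against 68.8% of all genes. Averaged over the list, the level was 10.40 and 10.44 on the control arrays and 8.97 and 9.01 on the null arrays.

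Cdkn1a, the inhibitor p21 that halts the cycle on p53's command, read 13.88 and 13.76 on the control arrays and 9.62 and 9.52 on the null arrays. Aen, a nuclease of apoptosis, read 12.17 and 12.11 against 8.42 and 8.63. Pmaip1, the death trigger NOXA, stood at 10.87 and 11.04 in control cells and was dim in null cells, and Perp, a membrane protein of p53-dependent death, stood at 9.39 and 9.73 and was dim as well. Mdm2, the ligase that destroys p53 and is itself its target, read 12.85 and 12.82 against 10.83 and 10.93 (named after its values were seen). The targets that went the other way were the stress gene Sesn1 (9.53 and 9.30 against 11 and 11.07), the DNA damage sensor gene Ddb2 (7.48 and 7.42 against 8.75 and 8.70), Pltp, a phospholipid transfer protein, and Gadd45a, a growth arrest gene. The list therefore did not move as a block, although most of its members were lower.

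The promoter of Cdkn1a is shown because this gene was the only p53 target among the 28 with a promoter in the RefSeq table whose promoter held a pair of p53 decamers, a match found in 8 of 14368 genes tested, or 0.0557%. The stretch is chr17:29090729-29090978 on the plus strand of GRCm38.p6. It ends at the base before a transcription start that was chosen for its matches from the 2 listed for the gene. Which of these starts the cells use was not tested. Capitals mark the decamers, which begin 73 and 51 bases before the chosen start.
Cdkn1a: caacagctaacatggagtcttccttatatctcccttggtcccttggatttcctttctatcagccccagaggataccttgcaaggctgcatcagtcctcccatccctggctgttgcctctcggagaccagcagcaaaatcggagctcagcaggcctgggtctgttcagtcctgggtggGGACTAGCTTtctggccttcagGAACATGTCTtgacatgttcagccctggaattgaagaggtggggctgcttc
A lone p53 decamer on either strand occurred in 11 of the 28 p53 targets, or 39.3%, against 8.60% of all genes tested, 8.27% of those called higher and 9.10% of those called lower. A match of letters is a description of the window and not a bound site.

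The inhibitors of cyclin-dependent kinases went both ways. Of 8 measured, 4 were higher and 3 lower. Cdkn1b, the inhibitor p27, rose from 9.61 and 9.85 on the control arrays to 11.90 and 11.73 on the null arrays, and Cdkn2c, the inhibitor p18, from 9.82 on both to 11.58 and 11.46. Cdkn1c, the imprinted inhibitor p57, fell from 10.15 and 10.09 to 7.73 and 7.35, and Cdkn2b, the inhibitor p15, from 12.22 and 12.26 to 11.29 and 11.14. Cdkn2a, whose locus gives p16 and the p53 activator ARF, read 11.52 and 11.62 against 11.84 and 11.64 and did not pass. No array of Cdkn1b, Cdkn2c, Cdkn1c or Cdkn2b overlapped with the other genotype, which held for 68.8% of all genes.

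Genes of mitosis were higher in null cells. Of 50 genes of the spindle, kinetochore and mitotic kinases, 41 were higher, 2 lower and 7 not called, with a median log2 difference of 0.71, and 14 passed 2-fold upward while none did so downward. The mean level of the list was 9.22 and 9.24 on the control arrays and 9.92 and 9.97 on the null arrays. Cdc25b, a phosphatase that starts mitosis, read 8.16 and 7.85 against 10.05 and 10.28. Nusap1, which bundles spindle microtubules, read 8.57 on both control arrays against 10.40 and 10.37. Cenpa, the histone of the centromere, read 10.08 and 10.39 against 12.11 and 12.00 on the probe set used, and 1 of its 2 bright probe sets was called higher. Bub3, a checkpoint protein, was lower (12.40 and 12.46 against 11.75 and 11.73). The p53 and the mitosis lists share 0 genes.

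The promoters of mitotic genes often hold a CHR element and CCAAT boxes, which are bound by the DREAM and NF-Y complexes. On either strand, the CHR letters TTTGAA occurred in 30 of 43 mitotic genes with a promoter in the table, or 69.8%, against 15.7% of all genes tested, and CCAAT occurred in 34, or 79.1%, against 42%. Among all genes called higher the shares were 15.6% and 44.5%, so neither motif set the called genes apart as a whole. The promoters below are 4 picked examples of mitotic genes in which both motifs fall within 120 bases before the start. They let the spacing be compared, and the whole list was not searched for it. Ube2c, the ubiquitin carrier of the anaphase complex, is at chr2:164769809-164769928 on the plus strand, and Espl1, the protease separase, at chr15:102296173-102296292 on the plus strand. Kif11, a spindle motor, is at chr19:37376262-37376381 on the plus strand, and Top2a, which untangles DNA, at chr11:99024190-99024309 on the minus strand. Each ends at the base before the start in GRCm38.p6, and capitals mark either motif, of which the CHR letters appear as TTCAAA and the box as ATTGG where they lie on the opposite strand.
Ube2c: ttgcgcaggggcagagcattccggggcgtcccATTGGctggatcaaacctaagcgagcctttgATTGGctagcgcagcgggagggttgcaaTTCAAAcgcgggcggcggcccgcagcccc
Espl1: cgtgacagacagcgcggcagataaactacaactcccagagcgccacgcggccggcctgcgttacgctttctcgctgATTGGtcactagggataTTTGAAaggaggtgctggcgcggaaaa
Kif11: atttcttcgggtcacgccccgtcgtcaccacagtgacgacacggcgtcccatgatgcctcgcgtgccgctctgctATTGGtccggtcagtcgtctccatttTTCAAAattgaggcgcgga
Top2a: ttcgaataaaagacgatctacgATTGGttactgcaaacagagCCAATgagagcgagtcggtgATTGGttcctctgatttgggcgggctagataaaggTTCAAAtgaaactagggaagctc
In these promoters the CHR letters begin 29, 27, 19 and 23 bases before the start. All 4 genes were called higher in null cells: Ube2c moved from 11.08 and 11.30 to 12.36 and 12.27, Espl1 from 7.81 and 7.86 to 8.60 and 8.62, Kif11 from 7.47 and 7.44 to 8.06 and 8.34, and Top2a from 10.20 and 10.11 to 10.89 and 11.19. They were chosen for their motifs after the values were known.

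Replication genes were more often higher than lower, while cyclin and kinase genes were divided. Of 38 replication genes, 19 were higher and 5 lower (median 0.25), against 24.8% and 22.7% of all genes. Rfc4, a subunit of the clamp loader, moved from 8.10 and 8.55 to 10.34 and 10.27, and Gins3, part of the replicative helicase, from 7.82 and 7.71 to 9.36 and 9.34. Rrm2 and Rrm1, the subunits of ribonucleotide reductase, fell by 1.03 and 0.78 on the log2 scale. Neither overlapped between the genotypes, which held for 68.8% of all genes. Of 25 cyclin and kinase genes, 7 were higher and 8 lower. The mitotic cyclin genes Ccnb2 (10.17 and 10.29 against 11.52 and 11.51) and Ccna2 were higher, whereas the D-type cyclin genes of G1, Ccnd2 (14.06 on both control arrays against 12.33 and 12.57) and Ccnd1 (12.65 and 12.69 against 11.54 and 11.52), were lower, as was their partner Cdk6. Rbl2, a pocket protein of the DREAM complex, was 3.16-fold higher. In the BCL2 family and its relatives, 8 of 28 were higher and 11 lower, with the death trigger Bcl2l11 higher (9.75 and 9.96 against 11.24 and 11.26) and Bbc3, a p53 target, lower (10.08 and 10.26 against 7.81 and 7.78).

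**Figure D3:**
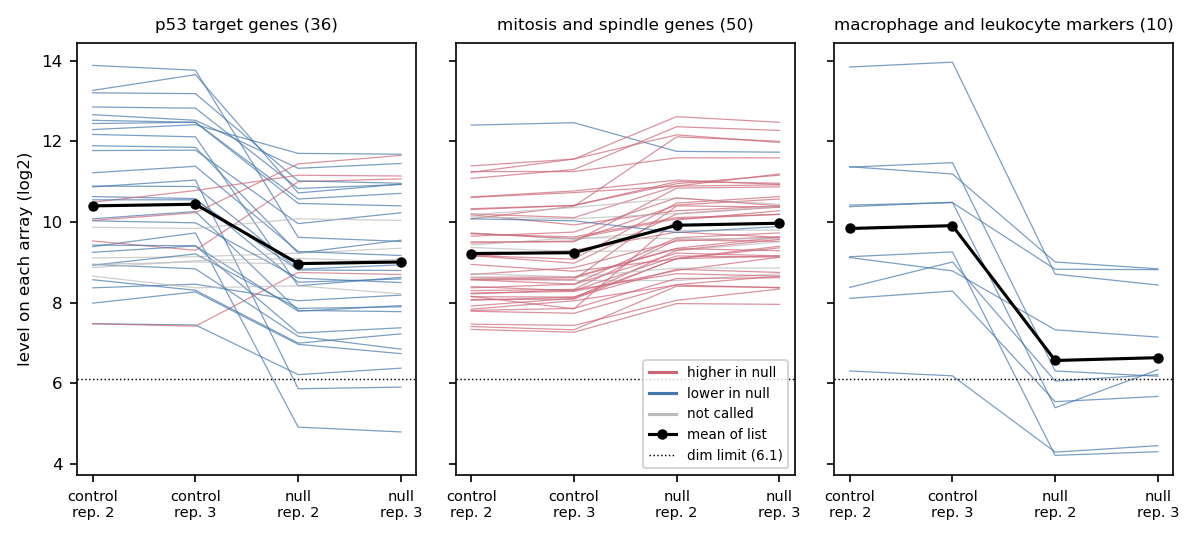
Level of each member (thin lines, log2) on the 4 arrays for p53 target genes, mitosis and spindle genes and macrophage and leukocyte markers, coloured by call, with the list mean in black and the dim limit dotted. The list mean falls from 10.4 to 8.97 between genotypes for p53 targets, rises from 9.22 to 9.92 for mitotic genes and falls from 9.84 to 6.57 for the macrophage and leukocyte markers.

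Markers of blood cells were examined because a culture from whole embryos can hold macrophages. In null cells all 10 markers of macrophages and leukocytes were lower, with a mean level of 9.84 and 9.91 on the control arrays and 6.57 and 6.64 on the null arrays. Csf1r, the receptor of the macrophage growth factor, read 11.37 and 11.19 against 9.01 and 8.84. Cd68, a lysosomal glycoprotein, read 10.42 and 10.48 against 8.83 and 8.82, and Spi1, the master regulator of myeloid cells, read 9.12 and 8.79 against 7.33 and 7.15. Ptprc, the pan-leukocyte surface gene CD45, stood at 9.14 and 9.26 in control cells and was dim in null cells, as were Fcgr3, Itgam and Aif1. A longer list of macrophage surface and signalling genes, which shares 8 genes with the markers, had 55 of 61 members lower and 1 higher, at a median of -1.84, and 19 of them were dim in null cells alone. The exception was Evi2a, a membrane gene (8.31 and 8.38 against 9.61 and 9.49). In RNA from a whole culture, fewer cells of a type and less RNA per cell cannot be told apart.

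Markers of other blood cells could be read only in part, since many were dim in both genotypes. This held for 5 of 9 mast cell, 3 of 8 neutrophil and 5 of 11 T and NK cell markers, for which a fall could not be seen. No mast cell marker was called by limma, and 1 neutrophil and 1 T and NK cell marker were higher. Of 8 B cell markers 4 were higher, of 9 osteoclast markers 4 were higher and 1 lower, and of 9 erythroid and megakaryocytic markers 3 were higher and 1 lower. In these lists 2, 3 and 3 markers were dim in both genotypes. The B cell calls, Blk, Cd22, Ms4a1 and Igll1, were small, at 0.28 to 0.41 on the log2 scale. Blk lost its call with the 4 resting arrays alone, and the others lost theirs with the mean of a gene's probe sets. Regulators of the myeloid lineage were split, with 6 higher and 7 lower of 17: Irf8 was lower and dim in null cells, whereas Maf moved from 8.40 and 8.99 to 11.04 and 11.11. Of 33 cathepsin and lysosomal genes, 7 were higher and 14 lower. Ctss, a protease of antigen processing, stood at 11.39 and 11.56 in control cells and was dim in null cells, while Ctso and Ctsh, other cathepsins, were 1.10 and 1.03 higher on the log2 scale. The decrease was thus found in macrophage genes and not in every lysosomal gene.

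Complement genes separated by component. All 3 genes of the recognition unit C1q were lower, with C1qb at 11.55 and 11.99 and C1qc at 11.25 and 11.49 in control cells and dim in null cells. The proteases that C1q activates were higher: C1ra moved from 8.89 and 8.79 to 11.63 and 11.77, beside C1s1 above. Clu, the inhibitor clusterin, moved from 8.06 and 7.95 to 11.97 and 11.89. Serping1, the inhibitor of those proteases, stood at 9.11 and 9.10 in control cells and was dim in null cells. In all, 4 of 18 complement genes were higher and 10 lower. Whether the macrophage genes carry the C1q decrease was not tested.

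Antigen presentation and interferon genes were mixed as well. The class I heavy chain genes H2-K1 (12.76 and 12.86 against 10.14 and 9.91) and H2-D1 (13.44 and 13.45 against 10.66 and 10.73) were lower. These genes are near-identical, and 4 of the 6 bright H2-D1 probe sets were called lower. Tapbp, which loads peptide on class I molecules, was higher (10.36 and 10.45 against 11.87 and 12.08), as were the proteasome activator gene Psme1 and the class Ib gene H2-M3. Of 37 interferon response genes, 16 were higher and 7 lower, with Ifit1, a sensor of foreign RNA, at 6.08 and 6.32 against 8.22 and 8.20 and the GTPase gene Irgm1 at 9.89 and 10.09 against 8.59 and 8.74. Of 28 chemokines, 7 were higher and 14 lower: Ccl5, which draws T cells, rose from 7.13 and 7.15 to 9.53 and 9.40, Cxcl12, the ligand of Cxcr4, from 13.57 and 13.54 to 14.44 and 14.45, and Cxcl14 stood at 9.78 and 9.70 in control cells and was dim in null cells. Il6, a cytokine of inflammation, stood at 7.66 and 7.98 in control cells and was dim in null cells, and Csf1, the macrophage growth factor, fell by 1.23 on the log2 scale.

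Smooth muscle genes were lower in null cells. Of 24 smooth muscle and myofibroblast genes, 19 were lower and 3 higher, at a median of -0.66, and all 24 were without overlap between the genotypes, against 68.8% of all genes. Mylk, the kinase that starts contraction, read 11.80 and 11.97 on the control arrays and 9.64 and 9.67 on the null arrays. Cnn1, calponin of smooth muscle, read 13.47 and 13.40 against 11.27 and 11.37, and Lmod1, an actin nucleator, read 9.93 and 9.80 against 7.93 and 7.95. Acta2, the actin that defines myofibroblasts, remained among the brightest genes in both (14.78 and 14.84 against 14.22 and 14.26), with 2 of its 3 bright probe sets called lower. Csrp2, a LIM protein of smooth muscle, went the other way (11.30 and 11.45 against 13.01 and 12.96). Of 28 striated muscle genes, 8 were higher and 6 lower, at a median of 0.09, with Acta1 among the lower. However, 13 of the 28 were dim in both genotypes, so a fall in them could not be seen. No smooth muscle gene was dim in both. The macrophage markers moved with the smooth muscle group, and their part in it was not tested.

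Targets of the actin-sensing factors MRTF, SRF and YAP, a list that shares 6 genes with the one before, had 22 of 28 lower and 1 higher (median -0.64). Ccn2, a matricellular growth factor, read 14.25 and 14.37 against 12.17 and 12.23, and Fhl1, a LIM protein, read 13.66 and 13.62 against 12.18 and 12.25. Its relative Ccn1 was the exception, at 12.02 and 12.23 against 13.52 and 13.65.

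SRF binds the CArG box, and the boxes in the promoters of Acta1 and of Fhl2, a LIM protein of the same list, are shown since Acta1 had the second largest decrease of all bright genes. The box was found in 1.59% of all promoters tested, in 2.16% of those of genes called lower, in 4.02% of those called at least 4-fold lower and in 3 of 20, or 15%, of smooth muscle genes. The stretches are chr8:123894776-123894925 and chr1:43196762-43196911, both on the minus strand of GRCm38.p6, each ending at the base before a start, with the box in capitals.
Acta1: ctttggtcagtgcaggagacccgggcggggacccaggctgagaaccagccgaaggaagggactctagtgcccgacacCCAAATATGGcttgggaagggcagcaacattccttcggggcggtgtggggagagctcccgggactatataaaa
Fhl2: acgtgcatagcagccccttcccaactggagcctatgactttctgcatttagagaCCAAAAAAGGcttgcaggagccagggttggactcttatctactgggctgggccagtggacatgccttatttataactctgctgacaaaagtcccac
The box begins 73 bases before the start in Acta1. In Fhl2 it begins 96 bases before a start chosen for its match from the 2 listed. Fhl2 read 12.51 and 12.56 on the control and 11.10 and 11.14 on the null arrays.

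Genes of the extracellular matrix moved in both directions. Among 13 small leucine-rich proteoglycans, which coat collagen fibrils, 7 were higher and 2 lower, and 6 were at least 2-fold higher. Dcn, decorin, read 10.95 and 10.96 on the control arrays and 14.53 and 14.52 on the null arrays. Ogn, osteoglycin, read 11.58 and 11.67 against 13.92 and 14, and Omd, osteomodulin, read 6.69 and 6.72 against 9.99 and 9.92. Aspn, asporin, was 2.15 higher on the log2 scale, whereas Bgn, biglycan, read 14.68 and 14.65 against 14.70 and 14.74 and did not pass. Among 18 elastic fibre genes, 8 were higher and 7 lower. Fbln1 (9.79 and 9.57 against 12.62 and 12.74) and the fibre-associated gene Mfap4 were higher, the fibrillin gene Fbn2 was lower (10.01 and 10.23 against 7.31 and 7.02), and the fibulin gene Efemp1 stood at 11.90 and 12.72 in control cells and was dim in null cells.

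Of the 11 fibril-forming collagens, 3 were higher and 2 lower. Col5a3, a minor chain that caps fibril growth, rose from 8.26 and 8.44 to 10.62 and 10.81, and Col5a2 fell from 14.34 on both control arrays to 13.39 and 13.61. Of 26 other collagens, 10 were higher and 9 lower. The microfibril chains Col6a1 (12.33 and 12.23 against 13.61 and 13.83) and Col6a2 were higher. Col4a5, a chain of basement membrane, fell from 10.63 and 10.39 to 6.54 and 6.72, and Col12a1 and Col7a1, which link fibrils and anchor epithelia, fell by 2.31 and 2.17 on the log2 scale. Plod2, which hydroxylates lysine for collagen crosslinks, was higher (11.47 and 11.35 against 13.17 and 13.24) and the oxidase gene Loxl3 lower.

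Adhesion and remodelling genes moved in both directions too. Of 28 matricellular and adhesive glycoproteins, 10 were higher and 11 lower, with Smoc2 at 10.98 and 10.90 against 13.68 and 13.90 and its relative Smoc1 at 10.99 and 10.92 against 7.80 and 7.87. These are related calcium-binding matrix proteins, and they moved in opposite directions by similar amounts. Of 33 metalloproteinase and inhibitor genes, 8 were higher and 15 lower. Mmp2, gelatinase A, rose from 12.11 and 11.96 to 13.73 and 13.89 with its activator Mmp14, and Mmp12, the elastase of macrophages, stood at 9.07 and 9.23 in control cells and was dim in null cells. Of 23 integrins, 7 were higher and 12 lower, among the latter the collagen receptor gene Itga1 (9.27 and 9.24 against 6.5 and 6.80) and Itgb2, a leukocyte chain. Of 27 cadherins, 5 were higher and 11 lower, and Fat1, a giant cadherin, fell from 13.68 and 13.49 to 11.76 and 11.94.

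**Figure D4:**
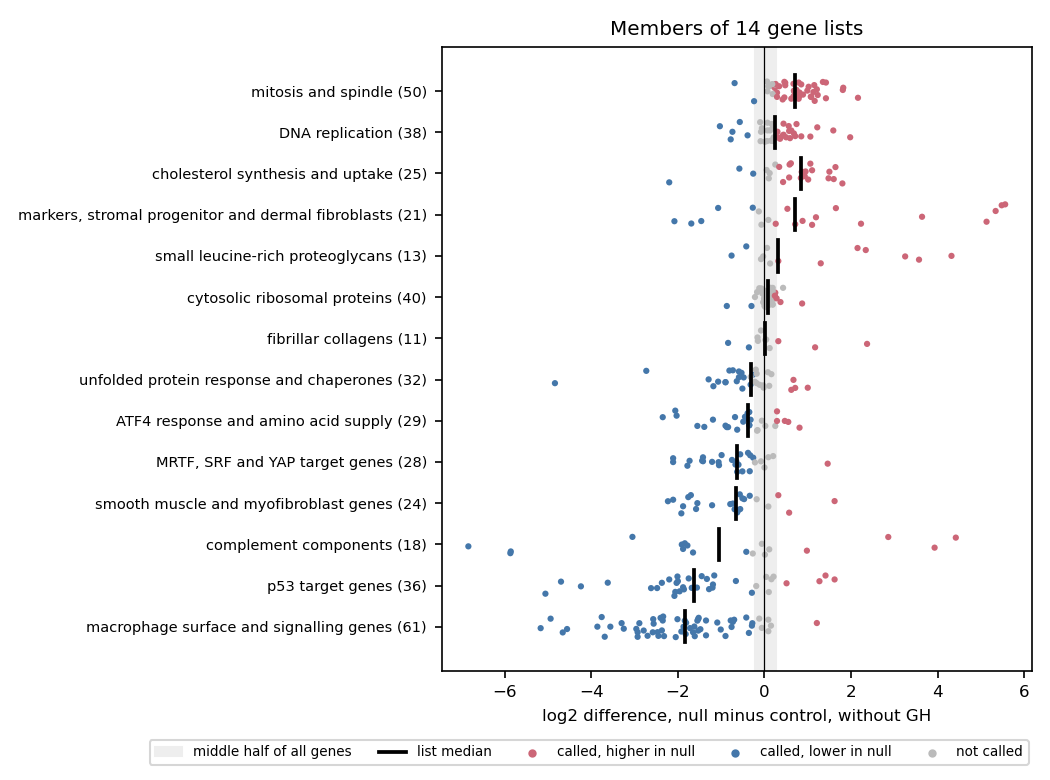
Log2 difference between null and control cells (horizontal axis) of each measured member of 14 gene lists, with the number measured in parentheses, the list median as a black bar and the middle of all gene differences shaded. Mitosis and cholesterol genes lie mainly to the right, and p53 target and macrophage genes mainly to the left.

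Markers of stromal progenitors and dermal fibroblasts were examined beside the general fibroblast markers. Of 21 measured, 13 were higher and 5 lower in null cells. All 21 were without overlap between the genotypes, against 68.8% of all genes. Dpt, dermatopontin, read 8.82 and 8.84 on the control arrays and 12.44 and 12.49 on the null arrays, and Pi16, a marker of adventitial fibroblasts, read 6.72 and 6.69 against 8.26 and 8.46. Scara5, the ferritin receptor, Cilp, a cartilage matrix protein, and the Wnt modulator Sfrp2 were dim in control cells and stood at 11.14 and 11.35, 10.82 and 10.95, and 11.08 and 11.14 in null cells. Pdgfra, the receptor that marks most fibroblasts, rose from 9.19 and 9.14 to 12.81 and 13.11. Among the lower markers were Crabp1, a retinoic acid binding protein of the dermis (11.40 and 11.66 against 9.91 and 9.77), the chemokine scavenger gene Ackr3, the microfibril gene Mfap5 and the endoglin gene Eng.

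Transcription factors of body pattern differed, as they do between fibroblasts of different sites. Among HOX genes, 9 of 19 in paralog groups 1 to 8 were higher and 4 lower (median 0.11), whereas in groups 9 to 13, which mark the rear of the body axis and the distal limb, 1 of 14 was higher and 8 lower (median -0.41). Hoxa7 rose from 9.68 and 9.81 to 11.67 and 11.48, Hoxb5 from 9.10 and 9.22 to 10.50 and 10.35 and Hoxc8 from 12.02 and 12.24 to 13.28 and 13.19. Hoxb9 fell from 9.02 and 9.75 to 6.76 and 6.95, and Hoxa10 and Hoxc10 stood at 6.84 and 7.04, and 7.70 and 7.68, in control cells and were dim in null cells. The split between the groups was seen in the values and was not tested. In each group 3 genes were dim in both genotypes. Hoxa11, among the 8 lower, lost its call with the replicate block. Of 65 other patterning factors, 20 were higher and 20 lower. Irx3 (10.10 and 10.40 against 6.41 and 6.59) and Irx5, which are linked limb and heart regulators, were lower, Meis2, a HOX cofactor, was higher (9.63 and 9.64 against 11.18 and 11.17), and Zic1 and Hand2 were dim in null cells alone. Osr2, a factor of palate and limb mesenchyme, was dim in control cells and stood at 9.88 and 9.84 in null cells. Site of origin is not given in the labels, and the genotype and the source of the cells cannot be told apart here.

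Imprinted genes, which are read from 1 parental copy and many of which set growth, had 7 of 28 higher and 11 lower, and all 11 were at least 2-fold lower, against 6.13% of all genes, 2 of them being dim in null cells. Beside Grb10 and Cdkn1c, Ndn, a growth suppressor of the Prader-Willi region, read 11.54 on both control arrays against 7.35 and 6.95, and Nnat, neuronatin, read 8.89 and 8.90 against 6.21 and 6.29. Dlk1, a Notch-like brake on fat cell formation, was higher (11.21 and 11.25 against 12.40 and 12.44). In the insulin and IGF system, 9 of 25 were higher and 8 lower. Igf1, a known target of GH signalling, rose from 9 and 9.14 to 11.38 and 11.40, and its binding protein genes Igfbp4, Igfbp5 and Igfbp6 were higher by 2.17, 1.82 and 2.05 on the log2 scale. Igfbp2 stood at 11.42 and 11.50 in control cells and was dim in null cells, and Htra1, a protease of binding proteins, fell from 13.50 and 13.49 to 10.49 and 10.58.

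Growth factor pathways contained strong changes without a common direction. Of 49 WNT genes, 16 were higher and 13 lower, with the antagonist gene Dkk2 at 9.84 and 9.94 against 12.71 and 12.75 and its relative Dkk3 at 9.51 and 9.89 against 7.04 and 7.33. Wnt4 and Wnt5a, both ligands, fell by 2.60 and 1.67 on the log2 scale. Of 48 TGF-beta, activin and BMP genes, 16 were higher and 20 lower. The receptor genes Tgfbr3 (9.78 and 9.66 against 12.02 and 12.27) and Tgfbr2 were higher, whereas Inhba, an activin subunit, fell from 13.48 and 13.37 to 10.37 and 9.95, the activin antagonist gene Fstl3 from 10.67 and 10.76 to 8.41 and 8.43 and the BMP target Id4 from 11.08 and 11.26 to 7.74 and 7.84.

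Of 23 genes of the PDGF, VEGF and angiopoietin systems, 11 were higher and 7 lower. Vegfd, a lymphatic growth factor, rose from 10.49 and 10.40 to 12.34 and 12.53, while the receptor gene Flt1 fell from 10.47 and 10.42 to 8.29 and 8.22 and the ligand gene Pdgfa from 11.09 and 11.13 to 9.44 and 9.16. The receptor of PDGF-A was thus higher, as given above, and its ligand lower. Of 30 Hedgehog and Notch genes, 13 were higher and 8 lower. Gas1 (11.54 and 11.63 against 13.65 and 13.70) and Cdon, co-receptors of Hedgehog, and its target Gli1 (6.44 and 6.61 against 8.59 and 8.50) were higher, whereas the Notch ligand gene Jag1 (11.72 and 11.89 against 9.46 and 9.59) and the Notch target Hes1 were lower. Of 15 EGF family genes, 5 were higher and 2 lower: the ligand genes Hbegf (10.90 and 11.07 against 9.21 and 9.01) and Ereg fell, and Errfi1, which damps the receptor, rose from 9.52 and 9.46 to 11.30 and 11.41.

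Several hormone receptor genes were dim in control cells and bright in null cells. Esr1, the oestrogen receptor, Pgr, the progesterone receptor, and Greb1, a target of Esr1, were dim on both control arrays and stood at 10.43 and 10.59, 10.13 and 10.21, and 10.75 and 10.86 on the null arrays. Every probe set of Esr1 and Pgr was called higher. In all, 13 of 34 nuclear receptors and partners were higher and 8 lower, none of the latter by 2-fold. Agtr2, an angiotensin receptor of embryonic mesenchyme, was dim in control cells and read 11.04 and 11.26 in null cells, whereas Gnai1, an inhibitory G protein, stood at 10.12 and 10.25 in control cells and was dim in null cells. Rgs4, which switches G proteins off, fell from 11.26 and 11.19 to 7.76 and 7.85. Of 19 immediate early factors, 8 were higher and 6 lower. Egr1, a factor induced within minutes by serum and stress, rose from 10.30 and 10.26 to 12.81 and 13.08 and Fos from 7.74 and 7.37 to 9.66 and 9.54, whereas Btg2, a gene that restrains proliferation, fell from 10.89 and 10.88 to 8.83 and 8.94 and Fosl1, a partner of Jun, from 9.45 and 9.59 to 8.58 and 8.42.

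Cholesterol synthesis genes were higher in null cells. Of 25 genes of synthesis and uptake, 18 were higher and 3 lower, at a median of 0.84, and 8 were at least 2-fold higher. Pmvk, a kinase of the mevalonate branch, read 8.67 and 8.64 on the control arrays and 10.45 and 10.46 on the null arrays. Idi1, the isomerase of the isoprene units, read 10.07 and 10.15 against 11.59 and 11.83, and Fdps, the farnesyl synthase, read 12.02 and 11.96 against 13.46 and 13.48. Fdft1, which makes squalene, was 1.5 higher, with 2 of its 4 bright probe sets called higher. Abcg1, which exports cholesterol, was lower, at 8.75 and 8.87 against 6.17 and 7.06, and Hsd17b7 of the late pathway fell by 0.58. Srebf2, the regulator of these genes, rose from 10.44 and 10.42 to 11.47 and 11.59 (named after its values were seen).

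CCAAT boxes, where NF-Y works beside the sterol factor, occurred in 18 of 20 cholesterol genes with a promoter in the table, or 90.0%, against 42% of all. They are shown in the last 120 bases before the start for 3 members that rose, Idi1 (chr13:8885486-8885605, plus strand), the cyclase gene Lss (chr10:76531485-76531604, plus strand) and the demethylation gene Msmo1 (chr8:64733579-64733698, minus strand), with CCAAT or its complement in capitals, from GRCm38.p6.
Idi1: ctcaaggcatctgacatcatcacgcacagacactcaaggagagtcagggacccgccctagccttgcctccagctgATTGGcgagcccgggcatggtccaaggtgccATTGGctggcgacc
Lss: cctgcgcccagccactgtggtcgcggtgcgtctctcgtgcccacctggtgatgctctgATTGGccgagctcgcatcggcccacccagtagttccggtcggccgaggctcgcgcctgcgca
Msmo1: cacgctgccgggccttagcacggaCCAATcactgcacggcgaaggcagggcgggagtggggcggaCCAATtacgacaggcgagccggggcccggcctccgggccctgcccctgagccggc
Lss moved from 9.38 and 9.39 to 10.43 and 10.47 and Msmo1 from 11.27 and 11.50 to 12.25 on both null arrays. The box is common to both the mitotic and the cholesterol genes, and to many genes that did not move.

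Other lipid genes were more often higher than lower, and energy genes were split. Of 33 fatty acid synthesis and storage genes, 16 were higher and 5 lower, with Lpl, the lipase of lipoproteins, at 10.04 and 9.96 against 12.25 and 12.27 and the fatty acid carrier gene Fabp3 at 10.86 and 11.19 against 7.68 and 7.57, for which 1 of 2 bright probe sets was called. Of 27 oxidation and peroxisome genes, 12 were higher and 7 lower, led by Etfdh of the electron transfer chain (10.13 and 10.04 against 11.57 and 11.69). Glycolysis was split, 9 higher and 10 lower of 28. The hexokinase gene Hk2 fell from 10.67 and 10.66 to 8.18 and 8.32 while the enolase gene Eno3 rose from 11.01 and 10.94 to 12.71 and 12.80. Respiratory chain genes, 11 higher and 14 lower of 48, held no member that was 2-fold higher, and Cycs, cytochrome c, fell from 12.85 and 13.11 to 11.58 and 11.43.

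Stress-response genes were lower. Of 29 genes of the ATF4 response, which is set off by amino acid shortage, 19 were lower and 5 higher (median -0.39). Chac1, which degrades glutathione, read 11.05 and 11.06 against 8.73 and 8.67, Ddit3, the death-linked factor CHOP, read 12.00 and 12.14 against 10.56 and 10.49, and Sesn2 read 10.63 and 10.58 against 8.51 and 8.59. The list shares 2 genes with the p53 targets. Atf4 itself was higher, at 13.12 and 13.09 against 13.58 on both null arrays, with 1 of 2 bright probe sets called. Of 32 chaperone and unfolded protein response genes, 17 were lower and 4 higher (median -0.32), with Hsph1, a partner of HSP70, at 11.45 on both control arrays against 10.28 and 10.47. The near-identical HSP70 genes disagreed: Hspa1b rose from 11.19 and 11.45 to 12.27 and 12.36, and the single probe set of Hspa1a stood at 8.30 and 8.99 in control cells and was dim in null cells.

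Redox and retinoid enzymes held some of the strongest single changes. Of 41 glutathione and redox genes, 17 were higher and 11 lower. The transferase genes Gstt1 (6.86 and 7.04 against 9.78 and 9.91) and Gstm1, which has near-identical relatives, rose beside Mgst2, while Gpx3, the secreted peroxidase, fell from 11.54 and 11.52 to 7.73 and 7.43 and Gpx7 stood at 10.37 and 10.53 in control cells and was dim in null cells. Of 32 alcohol, aldehyde and retinoid genes, 14 were higher and 12 lower. Aldh1a1, which makes retinoic acid, rose with Adh1 from 7.51 and 7.49 to 9.49 and 9.46, and Dhrs3, which reduces retinal back to retinol, fell from 10.25 and 10.44 to 8.89 and 8.88.

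Ribosomal proteins were called less often than all genes, while reference genes and proteasome subunits were not. Of 40 cytosolic ribosomal proteins, 5 were higher and 2 lower, or 17.5% called against 47.5% of all genes, and none reached 2-fold. Among 16 reference genes, 5 were higher and 3 lower, or 50% called, again none by 2-fold. Of 28 spliceosome genes, 8 were higher and 3 lower, or 39.3% called. Of 32 proteasome subunits, 7 were higher and 12 lower, or 59.4% called, led by Psmd13 (11.37 and 11.36 against 9.96 and 9.97) with 2 of its 3 bright probe sets called. The ribosomal protein paralogs Rpl39l and Rps4l were the exception, at 11.09 and 11.62, and 10.71 and 10.96, in control cells and dim in null cells. They resemble their parent genes, so a probe set of either may read more than its own gene.

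Called genes were not spread evenly over the chromosomes. Genes were ordered by the RefSeq table of GRCm38.p6, and 14036 that were not dim in both genotypes were placed. Of these 29.9% were higher and 27.7% lower, with a median of 0.04. On chromosome 4, 12.7% of 857 genes were higher and 48.7% lower (median -0.23), on chromosome 1 the shares were 15.2% and 48.1% of 794 (median -0.22), and on chromosome 7 they were 12.9% and 46.0% of 1110 (median -0.20). The reverse held on chromosome 17, with 46.1% of 697 higher and 12.1% lower (median 0.23), on the X chromosome, with 48% of 431 higher and 17.6% lower (median 0.23), and on chromosome 8, with 46.1% of 736 higher and 18.6% lower (median 0.20). Under GH the medians of chromosomes 4 and X were -0.26 and 0.20. Between replicates of a genotype every chromosome median lay between -0.03 and 0.05.

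The shift was spread along these chromosomes. In blocks of 50 consecutive genes, all 17 blocks of chromosome 4, all 15 of chromosome 1 and all 22 of chromosome 7 had a median below that of all genes. All 13 blocks of chromosome 17 and all 8 of the X chromosome lay above it, as did 12 of 14 on chromosome 8. Blocks of the same side were also found on all of chromosome 9 (16 of 16 above), chromosome 15 (11 of 11 above) and chromosome 19 (9 of 9 below). The block medians ranged from -0.38 to -0.05 on chromosome 4 and from 0.12 to 0.37 on chromosome 17. The shift was small beside the difference of single genes such as Grb10. No measurement of chromosome copy number was used here, and its part in the shift was not tested. The p53 target Cdkn1a, on chromosome 17, was lower against the trend of its chromosome.

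**Figure D5:**
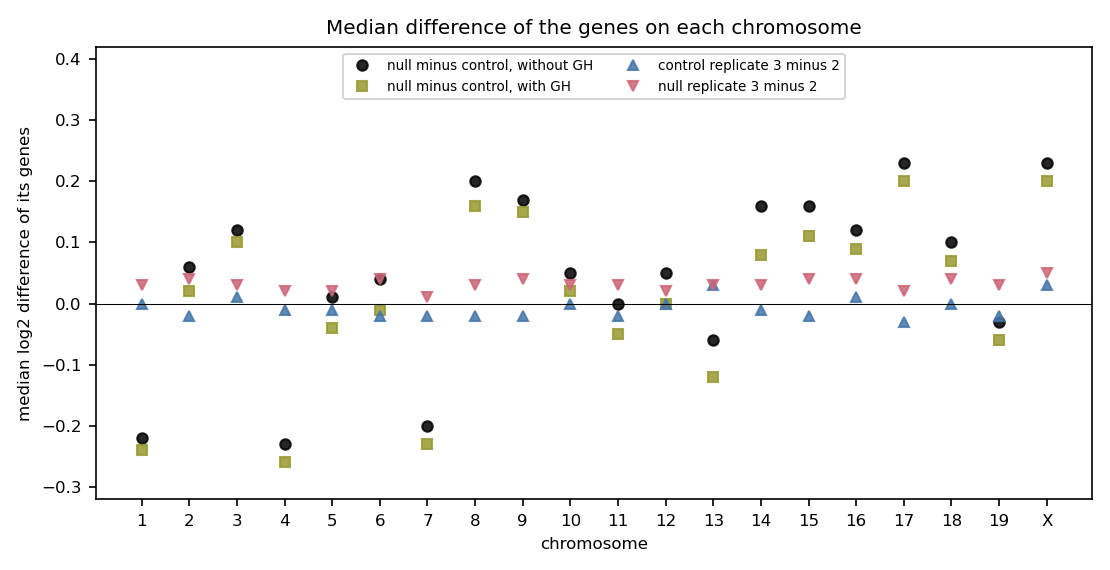
Median log2 difference (vertical axis) of the genes on each chromosome that were not dim in both genotypes, for null minus control without GH (black), the same with GH (olive), and replicate 3 minus 2 in control (blue) and null cells (red). Chromosomes 1, 4 and 7 lie near -0.2 and chromosomes 8, 17 and X near 0.2 in both GH states, while the replicate differences stay between -0.03 and 0.05.

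Shorter runs of neighbours were also present. Over windows of 15 consecutive genes the window median had its 5th percentile at -0.41 and its upper counterpart at 0.43. The highest window lay on the X chromosome from Ctps2, a nucleotide synthase gene, to Gpm6b, a myelin-related membrane gene, with a median of 1.67 and 11 genes higher and none lower. Gpm6b and Vegfd were 3.35 and 1.99 higher on the log2 scale, and Grpr, a peptide receptor gene, was dim in control cells alone, while their neighbours Ap1s2 and Mospd2 did not pass. The lowest window, on chromosome 7 from Tlnrd1 to the protease gene Prss23, had a median of -1.10 with 11 genes lower and 2 higher. It held Ctsc, Cemip, which degrades hyaluronan (-4.18), and Nox4, an oxidase (-1.68), and the Wnt receptor gene Fzd4 was higher within it (1.30). These windows are the extremes of 13752 and are described, not tested.

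Promoters were searched for the palindrome TTCNNNGAA that STAT5 binds. It occurred in 8.57% of 14368 genes tested, in 8.44% of those called higher and in 7.62% of those called lower. Among genes at least 4-fold higher the share was 10.3% of 145, and among those at least 4-fold lower it was 7.14% of 224. The shares lay close to that of all genes in each class. The window runs from 250 bases before to 50 after a start, and no match says only that these letters are not in it. The known targets Socs2 (9.37 and 9.50 against 8.26 and 8.25) and Cish (8.63 and 8.36 against 7.91 and 7.88) were lower at rest. Their arrays did not overlap, which held for 68.8% of all genes. Socs2, Cish and the inner genes of the windows above were named after their values were seen.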

How the data were processed

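Gene expression was measured on 8 mouse expression arrays, 2 per group. The deposited values were log2 signals made by the authors with RMA in Partek 6.10.0511, per the submitters' processing notes, and other settings were not stated there. RMA corrects background, equalises the arrays' distributions and summarises probes, so array totals carry no depth, and the number of arrays limits the precision. Of 45101 probe sets, 64 controls were left out. Platform annotation named 1 gene for 34945 of the 45037 others, several for 932 and none for 9160, and 34741 symbols were updated by Entrez identifier through RefSeq. Each of 18193 genes took its brightest single-gene probe set, by the mean over arrays, and 9010 had several.

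A mean per group was fitted over all 8 arrays with limma 3.58.1 in R 4.3.3 (lmFit and eBayes, 4 residual degrees of freedom). A call was a Benjamini-Hochberg adjusted p below 0.05 over all genes. Errors are limma standard errors with n = 2 per group. The fit was tested on simulated data. Array medians lay between 6.89 and 6.96. The dim limit is the first quartile of gene values, a limit chosen with the data in view.

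Members and the 97 gene lists were chosen with earlier results of these data known. Named genes were Stat5a, Stat5b, Cdkn1a and Cdkn2b, the 15 largest called differences in each direction among genes bright in both genotypes whose bright probe sets were all called alike, up to 4 called members per direction of each list by p, members of lists of at most 15, all cell type markers, and genes at the ends of neighbouring runs. Genes outside this rule are marked in the text. Promoters were RefSeq windows of 300 bases (GRCm38.p6) for 14368 genes, searched on both strands. Alternatives were the 4 resting arrays alone, a replicate block, each array left out, other probe set summaries, normalizations, a dim filter, another prior and a 1.5-fold threshold.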

Additional observations from a re-analysis of the deposited data

Results flagged for a closer look

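Among the 34 genes named by size or as the study's subject, the difference between null and control cells differed with GH for 4. This was judged by limma's interaction test, which 5.16% of all genes passed. The other named genes were not counted for it. It was smaller at rest than with GH by 0.55 on the log2 scale for Grb10 (adjusted p = 0.0288) and by 0.78 for Cthrc1 (adjusted p = 0.0089), both lower in null cells in each state. For Ndrg2 the increase was larger at rest by 0.97 (adjusted p = 0.000736). For Cdkn2b the difference at rest minus that with GH was -0.49 (adjusted p = 0.0482), close to the threshold.

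Probe sets that the annotation did not tie to a single gene were called less often than all probe sets. Of 10092 such probe sets, 23.4% were called, 1016 higher and 1341 lower in null cells. Over all 45037 probe sets, each tested alone, 8577 were higher and 8806 lower, which is a larger share.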

How the results depend on the processing

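The counts of genes higher and lower (4510 and 4130) stayed within 1.5 times under the alternatives run, except where each probe set was tested alone (8577 and 8806) and where a change beyond 1.5-fold was required (1238 and 1367). With each resting array left out they ranged from 3935 to 4329 and from 3617 to 3919. The interaction count of 938 ranged from 585 to 872 on leaving out an array, the lowest without null replicate 2, and was 90 beyond 1.5-fold. Beyond 1.5-fold the list counts were 15 higher for mitosis, 4 higher for replication, and 9, 11, 8 and 7 lower for smooth muscle, MRTF and SRF targets, the ATF4 response and the unfolded protein response. Alternatives were run for 13 list counts, and the other 7 of these stayed within 1.5 times. Counts of further lists had no alternative. For chromosomes the median was set against that of all genes, unlike the plain medians given above. In the main fit chromosomes 1, 4, 7, 8, 17 and X were then at -0.26, -0.26, -0.24, 0.16, 0.19 and 0.19. With the mean of a gene's probe sets chromosomes 1, 4, 7, 8 and X were at -0.21, -0.24, -0.21, 0.14 and 0.16. After a further quantile normalization chromosomes 1, 4 and 17 were at -0.27, -0.27 and 0.18. On leaving out an array they ranged from -0.29 to -0.25 (chromosome 1), -0.30 to -0.24 (4), -0.25 to -0.23 (7), 0.16 to 0.19 (8), 0.18 to 0.21 (17) and 0.16 to 0.25 (X). The cause of these moves was not tested.

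Same-numbered resting arrays of the genotypes deviated together with a correlation of 0.045. Over all pairs of groups this correlation lay between -0.279 and 0.129. With 2 arrays per group and conflicting numbers for 1 array, it cannot decide whether the numbers pair the samples. With the replicate block 4327 genes were higher and 3988 lower. Of 743 other named genes 606 were called, of which 548 kept the call in every alternative but the 1.5-fold threshold, where 209 lost it. In all, 6 of the 743 reversed, all with the mean of probe sets. Among the 34 genes named by size or as the study's subject, only Stat5b lost its call, beyond 1.5-fold. Dim signals and 2 arrays per group limit the precision.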

Other observations

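Markers of several other cell types were called about as often as all genes or more. Of 11 smooth muscle and pericyte markers 1 was higher and 7 lower, of 8 neural and glial markers 3 were higher and 3 lower, of 7 tendon markers 3 were higher and 2 lower, and of 10 endothelial markers 1 was higher and 4 lower. Of 10 epithelial markers, 1 was higher and 1 lower: Krt19, a keratin of simple epithelia, read 8.66 and 8.53 on the control arrays and 6.18 and 6.29 on the null arrays, while Epcam read 9.21 on both control arrays and 9.17 and 9.31 on the null arrays. The tendon regulator gene Mkx rose from 7.23 and 7.28 to 9.46 and 9.63, whereas Tnmd, a membrane protein of mature tendon, stood at 9.35 and 10.59 in control cells and was dim in null cells. The neuronal tubulin gene Tubb3 fell from 8.79 and 8.63 to 6.9 and 6.93. These values were not set against any explanation.

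Among transporters and channels, 6 of 41 solute carriers and aquaporins were higher and 19 lower. Aqp1, a water channel, rose from 7.33 and 7.50 to 9.69 and 9.66, and Slc19a2, a thiamine carrier, fell from 11.13 and 11.10 to 8.08 and 8.05. Of 35 chromatin genes 17 were higher and 4 lower, with the remodeller gene Smarca1 at 6.72 and 6.99 against 9.53 and 9.59 and Hmga2, a chromatin protein of embryonic cells, at 13.27 and 13.21 against 12.04 and 12.08.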
